A study of Sus scrofa with 22 samples.

Results

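Solute carriers are the largest group of membrane transport proteins in mammals, and 99 of their genes were followed here in blood mononuclear cells of mini pigs across 4 conditions. The members were taken by name: probe sets of the porcine Affymetrix array whose annotation gave a single symbol beginning with SLC and a digit, with SLC25A20 left out. Of 119 such genes (175 probe sets), 99 had a probe set with a log2 intensity above 5 in at least 2 of the 22 arrays, and 20 genes had none. A gene with several probe sets past that filter (33 of the 99) was represented by the one with the highest mean over the 22 arrays. The array held 5906 genes with a single symbol past the same filter, and 17240 probe sets with or without a symbol were tested. Of the 99, 3 carry the prefix without being carriers: SLC9A3R1 and SLC9A3R2, scaffolds that bind a sodium-proton exchanger, and SLC2A4RG, a transcription factor named after a glucose carrier.

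Blood was taken from pigs of the control group at the start (time 0; 5 females and 5 males) and from 2 females and 2 males of each of 3 diets after 9 months. Beef tallow made up 5% of the control chow and 20% of the high-fat chow. Pigs of the third diet had the 20% chow plus resveratrol, a plant polyphenol, dosed daily at 8 mg per kg of body weight. All animals were of the breed labelled Mini Pig, their age was not given in the sources used here, and each array was made from the blood of 1 pig. By the pig numbers in the labels, the 22 arrays came from 20 pigs, because control female 8 and control male 25 were measured at both times.

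Solute carriers do not hydrolyse ATP themselves. They let a substrate run down its own gradient, exchange it for another, or couple its uptake to sodium or protons whose gradients are kept up by pumps. In blood leukocytes, the glucose carriers of the SLC2 family and the amino acid carriers of the SLC1, SLC7 and SLC38 families feed activation and growth, SLC11, SLC30, SLC31 and SLC39 members move iron, zinc and copper, and the SLC25 family serves the inner membrane of mitochondria. Some carriers are typical of certain cells: SLC11A1 pumps metal ions out of the phagosome of phagocytes such as monocytes and macrophages, and SLC6A4 is the serotonin carrier of platelets.

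The members ranged from a mean log2 intensity of 4.61 to 12.98 over the arrays, with a median of 7.08, and 89 of the 99 were above 5 on each array. The other 10 lay near the filter, and SLC2A12 (2 arrays), SLC2A2 (2), SLC5A4 (3) and SLC33A1 (4) were above it on fewest. The scatter of the members within groups was like that of the array as a whole, with a median residual SD of 0.190 against 0.191 for all probe sets. It was widest for SLC6A4 (0.53), SLC3A1 (0.46), which encodes the heavy chain of the renal cystine carrier, SLC46A2 (0.40), SLC3A2 (0.39), the heavy chain shared by several amino acid exchangers, and SLC11A2 (0.39), an iron importer.

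The fraction is mixed, and markers of each blood cell type were measured in it. Past the filter were 10 of 16 T cell, 3 of 12 B cell, 6 of 12 NK and cytotoxic, 12 of 16 monocyte, 7 of 14 granulocyte, 6 of 12 platelet and 4 of 12 erythroid markers. In bulk samples, fewer cells of a type and less RNA per cell cannot be told apart. The difference between the 3' and 5' actin controls, a measure of RNA integrity, had a mean of 1.42 ± 0.50 over the 10 arrays of time 0 (SD). Over 4 arrays each it was 1.95 ± 0.65 with control chow, 2.36 ± 0.56 with high-fat chow and 1.86 ± 0.67 with resveratrol. The same difference of the GAPDH controls was 0.50 ± 0.19, 0.47 ± 0.16, 0.62 ± 0.07 and 0.50 ± 0.15 in that order. The poly-A spike-in controls divided the arrays within each time into 4 sets, A (2 females of time 0), B (the other 8 arrays of time 0), C (7 arrays of 9 months) and D (5 arrays of 9 months). What the sets stand for is not given in the sources used here. Time and set cannot be told apart, and at 9 months set and diet went largely together. All control arrays of 9 months but male 25 were in set C. All high-fat arrays but male 23 were in set D, and all resveratrol arrays but female 21 were in set C.

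Control pigs at 9 months were compared with the control group at time 0. SLC38A1, a sodium-coupled importer of glutamine and other neutral amino acids, rose about 4.20-fold, and the mitochondrial pyrimidine nucleotide carriers SLC25A36 and SLC25A33 rose 2.23-fold and 2.09-fold. The glucose carriers SLC2A3 and SLC2A1 rose 1.79-fold and 1.65-fold. SLC3A1 fell by 0.81 and SLC25A12, the mitochondrial aspartate-glutamate carrier, by 0.63 on the log2 scale. With limma, 27 of the 99 members changed (27.3%), 18 higher and 9 lower, against 35.0% of all probe sets (15.8% higher, 19.1% lower). The share of members called was below that of the array. At an unadjusted p under 0.05 there were 43 (43.4%, against 44.5%), 27 higher against 20.6% and 16 lower against 23.9%. Their median difference was 0.08, against -0.0064 over all probe sets, and 60 of 99 differences were above 0 against 49.2%. The 4 control arrays of 9 months did not overlap with the 10 arrays of time 0 for 9 members that were higher and 4 that were lower (13.1%, against 15.2% of all probe sets, 6.54% higher and 8.64% lower).

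Among the 13 carriers of amino acids and peptides, 3 rose, 2 fell and 8 did not pass. SLC38A1 (probe set Ssc_28782_1_A1_at) had log2 intensities of 7.82 to 8.91 at time 0 (median 8.49) and of 10.52 and 10.81 in the control females and 10.17 and 10.45 in the control males of 9 months. Each array of 9 months, whatever the diet, was above each array of time 0: the high-fat arrays read 10.63, 10.78, 10.31 and 10.62 and the resveratrol arrays 10.83, 10.70, 10.00 and 10.27. The difference was 2.07 (SE 0.19, limma adjusted p = 2.13e-07), and 2 further probe sets of the gene gave 2.06 and 1.40, both past the threshold.

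SLC7A1, an importer of arginine and lysine, rose by 0.60 (SE 0.12, limma adjusted p = 0.00102). Its arrays ran from 10.01 to 10.72 at time 0 (median 10.31) and read 10.91, 11.23, 10.86 and 10.70 in the controls of 9 months, so that 1 control male overlapped with the highest array of time 0. SLC7A7, the light chain of an exchanger that lets arginine and lysine out of cells, rose by 0.74 (SE 0.20, limma adjusted p = 0.00626) without overlap, from 6.94 to 7.78 at time 0 to 7.78, 8.11, 7.95 and 8.11, where the closest 2 arrays differed only beyond the second decimal. SLC3A1 fell by 0.81 (SE 0.25, limma adjusted p = 0.0168), a call lost without control female 8 (-0.72) or male 16 (-0.65) of 9 months. SLC1A4, a carrier of alanine, serine and cysteine, fell by 0.38 (SE 0.12, limma adjusted p = 0.0174), a call lost without control female 8 (-0.34) or 18 (-0.36) of 9 months. SLC1A5, the related importer of glutamine, had a difference of 0.12, and SLC3A2, the partner of SLC7A7, one of -0.06. SLC38A9, a lysosomal carrier that reports arginine to mTORC1, was at -0.41. Those 3 did not pass.

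**Figure D1:**
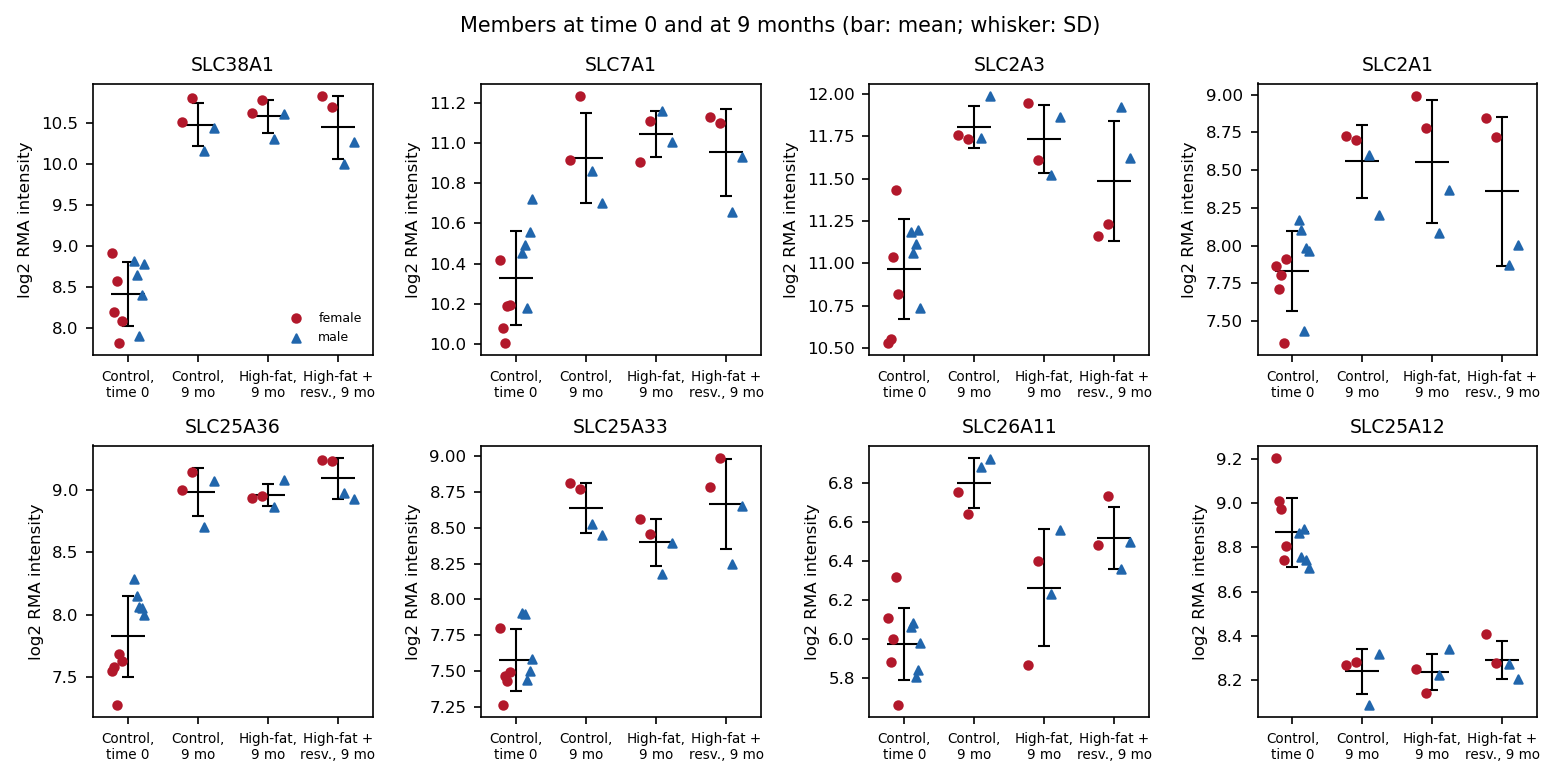
Log2 RMA intensity of 8 members on each array (circles, females; triangles, males), with the mean and SD of each group of 10 (time 0) or 4 arrays (control, high-fat and high-fat with resveratrol, 9 months). SLC38A1 lies between 7.82 and 8.91 at time 0 and between 10.00 and 10.83 on all diets at 9 months, and SLC25A12 runs the other way.

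Of 14 carriers of sugars and polyols, 4 rose and none fell with limma at the threshold (0 lower also at an unadjusted p under 0.05). All 7 SLC2 carriers had positive differences (median 0.41; 6 of 7 after a second quantile normalization or with array weights), and 3 of them passed. SLC2A3, the high-affinity glucose carrier of leukocytes, read 10.53 to 11.43 at time 0 (median 11.05) and 11.76, 11.73, 11.74 and 11.99 in the controls of 9 months, a rise of 0.84 (SE 0.14, limma adjusted p = 0.000187) with no overlap. SLC2A1, which carries basal glucose uptake, read 7.36 to 8.17 (median 7.89) and then 8.72, 8.70, 8.60 and 8.20, again without overlap (0.73, SE 0.18, limma adjusted p = 0.00325). SLC45A3 rose by 0.43. SLC2A12, at 0.42, and SLC2A2 were each above log2 5 on 2 of the 22 arrays, all of 9 months, and on 0 of the 10 arrays of time 0. Both came past the filter through arrays of the time at which they were higher. Neither adds support to the 7 positive signs and their median, nor SLC2A12 to the counts of 4 and 3 that include it. SLC2A4, the insulin-responsive glucose carrier, had 0.23 and the fructose carrier SLC2A5 0.41, neither past the threshold.

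Of 18 members of the SLC25 family, classed here by name as mitochondrial carriers, 4 rose and 2 fell, and 7 differences were positive. SLC25A36 (probe set Ssc_30700_1_S1_at) was between 7.28 and 8.29 at time 0 (median 7.84) and read 9.00, 9.15, 8.71 and 9.07 in the controls of 9 months (1.15, SE 0.14, limma adjusted p = 4.01e-06). SLC25A33 was between 7.26 and 7.91 (median 7.50) and then 8.81, 8.77, 8.53 and 8.45 (1.06, SE 0.13, limma adjusted p = 4.56e-06), and its second probe set also passed at 0.45. SLC25A12 was between 8.70 and 9.20 (median 8.83) and then 8.27, 8.28, 8.09 and 8.32 (-0.63, SE 0.08, limma adjusted p = 7.70e-06).

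With SLC38A1, these 3 were the 4 members (4.04%, against 7.06% of all probe sets) whose 12 arrays of 9 months all lay on 1 side of the 10 arrays of time 0. SLC25A39, a carrier of glutathione into mitochondria, fell by 0.55, a call lost without control female 8 (-0.50) or male 25 (-0.43) of 9 months. The adenine nucleotide carrier SLC25A5 rose by 0.21, while its relatives SLC25A4 and SLC25A6 had -0.15 and -0.0017 and did not pass. The phosphate carrier SLC25A3 rose by 0.16, but its other probe set gave -0.55 without passing.

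Carriers of metals and haem had positive differences in 12 of 13 members (median 0.24; 11 of 13 with array weights), and 4 rose. After centring on array medians or a second quantile normalization, 7 rose. The copper importer SLC31A1 rose by 0.42 (SE 0.10, limma adjusted p = 0.00414) and its relative SLC31A2 by 0.70 (SE 0.20, limma adjusted p = 0.0103). SLC31A2 read 6.33 to 7.79 at time 0 (median 6.80) and 7.31, 7.39, 7.86 and 7.64 in the controls of 9 months, so that the groups overlapped. The magnesium carrier SLC41A1 rose by 0.30, with a second probe set at -0.24 that did not pass, and SLC39A2 of the zinc importers by 0.24. All 6 zinc importers of the SLC39 family were positive, with a median of 0.12 (5 of 6 with array weights). The zinc exporter SLC30A5 had 0.44 and SLC11A1 0.49, without passing, and the iron importer SLC11A2, at -0.19, was the one negative member.

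Of 9 carriers of inorganic ions and protons, 2 rose. SLC26A11, a sulphate and anion carrier, read 5.66 to 6.32 at time 0 (median 5.99) and 6.75, 6.64, 6.88 and 6.92 at 9 months on control chow, without overlap (0.83, SE 0.12, limma adjusted p = 2.72e-05). The dimmer second probe set of SLC26A11 gave 0.25 and did not pass (limma adjusted p = 0.0689). SLC8B1, the sodium-calcium exchanger of mitochondria, rose by 0.26 (SE 0.08, limma adjusted p = 0.0130), and its plasma membrane relative SLC8A1 had 0.47 without passing. Among 10 members of the SLC35 family, nucleotide sugar carriers and their relatives by name, SLC35F6 rose by 0.52, SLC35A3 fell by 0.37 and SLC35D2 fell by 0.31. These 3 calls rested on single arrays. SLC35A3 lost it without control male 16 (-0.20), and SLC35D2 without control male 16 (-0.23), control female 18 (-0.24) or male 15 of time 0 (-0.29). SLC35F6 lost it without control female 18 (0.45), male 16 (0.54) or male 25 (0.40) or female 20 of time 0 (0.48). SLC35F6 and SLC35D2 also missed the threshold where only the arrays compared were fitted (limma adjusted p = 0.0588 and 0.0537), SLC35F6 on its second probe set (0.49), and SLC35D2 after centring (-0.28) or a second quantile normalization (-0.26).

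The choline carrier SLC44A2 fell by 0.31 and SLC46A3, a lysosomal carrier, by 0.36, both without overlap between the groups, and the scaffold SLC9A3R1 fell by 0.56. On their second probe sets neither passed: SLC44A2 was at -0.02 (limma adjusted p = 0.946) and SLC46A3 at -0.13 (limma adjusted p = 0.431). The call of SLC44A2 was also lost without control female 8 (-0.25) or 18 (-0.30) of 9 months. None of the 5 vitamin carriers, the 2 fatty acid carriers, the 2 carriers of the SLC16 family and the nucleoside carrier SLC29A1 passed with limma. At an unadjusted p under 0.05 there were 0 of the 5 vitamin carriers, 1 of the 2 fatty acid carriers (SLC27A6, 0.24) and not SLC29A1. Of the 2 SLC16 carriers 1 was under it, the lactate exporter SLC16A3 (-0.34). SLC27A6 lay near the filter, above log2 5 on 4 arrays of time 0 and on 3 control arrays of 9 months. For the 12 called members with further probe sets, 12 of 14 such probe sets had the sign of the member and 5 passed as well.

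Genes that work with carriers moved in both directions between the times. Of 10 genes of the amino acid response, the transcriptional programme that raises amino acid carriers when amino acids run short, ATF4 (0.61, limma adjusted p = 8.25e-07), ATF3 (1.16), DDIT3 (0.86) and CEBPG (0.35) rose and MTHFD2 fell by 0.55. Of 11 genes of lysosomal nutrient sensing, the mTORC1 activator RHEB (0.77), TSC1 (0.37) and LAMTOR3 (0.31) rose, and NPRL2, LAMTOR2 and RRAGC fell by 0.52, 0.40 and 0.34. Of 9 genes of the sodium pump and of carrier traffic, WNK1 (0.64) and ATP1B3 (0.21) rose and BSG, the chaperone of lactate carriers, fell by 0.34. Of 12 genes of metal handling, HMOX1 (0.68), IREB2 (0.35) and HAMP (0.31) rose and the copper chaperone ATOX1 fell by 0.33. The shares called were 50.0%, 54.5%, 33.3% and 33.3% of the lists in this order, against 35.0% of all probe sets.

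Cell type markers differed between the same groups. T cell markers fell in 6 of 10 members and rose in 0 (median -0.52), with summed intensities of 18929 to 24053 at time 0 and 15335 to 17019 in the controls of 9 months. B cell markers fell in 2 of 3, NK and cytotoxic markers in 3 of 6 (median -0.46) and erythroid markers in 4 of 4 (median -1.45; sums of 2462 to 10735 and 1119 to 4150). Monocyte markers rose in 3 of 12 (median 0.22, sums of 13598 to 20988 and 16074 to 23447). Over all probe sets 19.1% fell and 15.8% rose with limma. Of the 7 granulocyte and 6 platelet markers 0 passed with limma, and 1 and 0 had an unadjusted p under 0.05. The part of these markers, of RNA integrity and of the spike-in sets in the differences of the carriers was not tested.

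**Figure D2:**
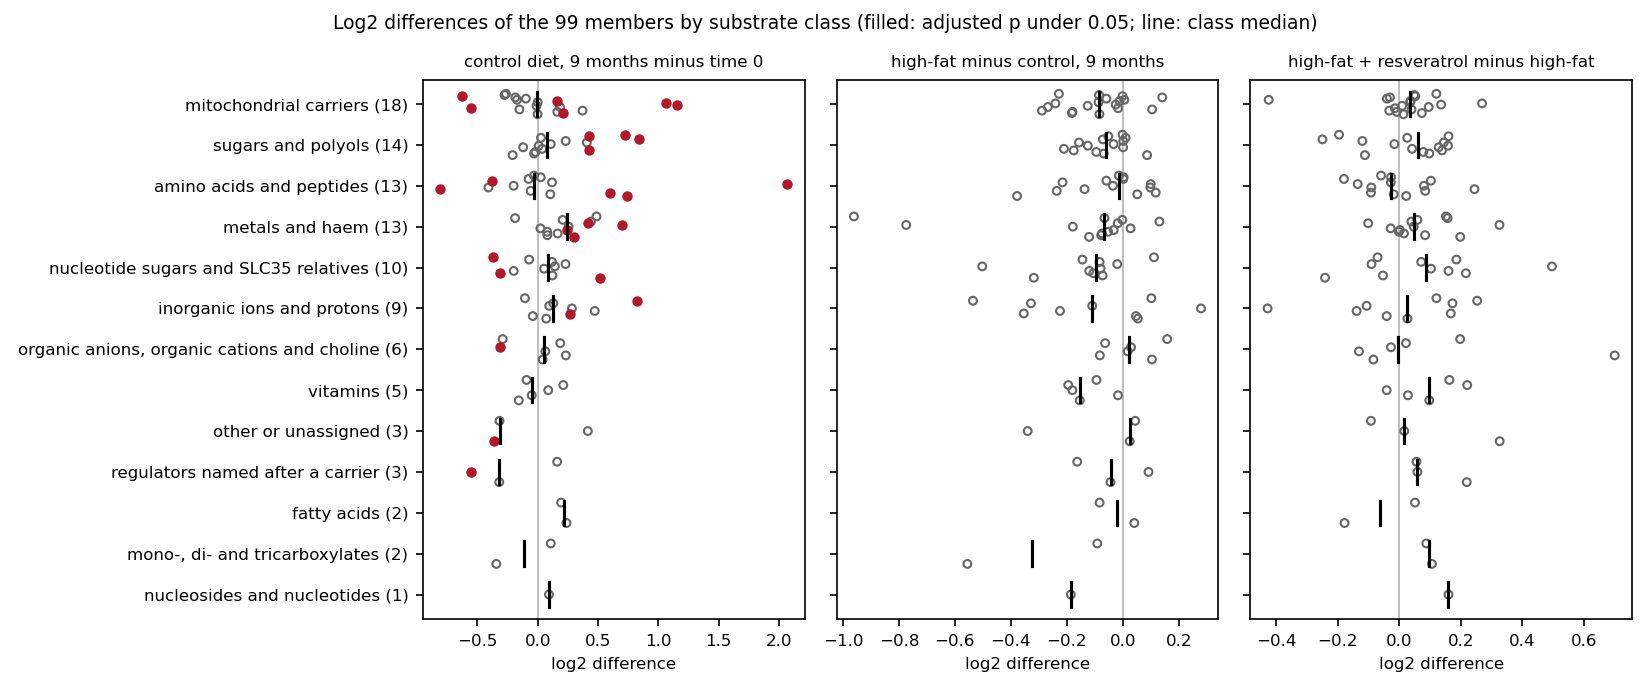
Log2 differences of the 99 members by substrate class (number of members in brackets) for control chow at 9 months minus time 0, high-fat minus control chow, and resveratrol minus high-fat chow. Filled points passed at an adjusted p under 0.05 and black lines are class medians; filled points appear in the first panel only, and in the second 71 of 99 points lie left of 0.

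The comparison of high-fat with control chow asks what 9 months of the fat-rich chow did to these cells. No carrier passed the test, as no probe set of the array did, but the carriers with the smallest p were all lower on the high-fat chow. They were SLC26A11, SLC11A1, SLC8B1, SLC26A6, SLC16A3 and SLC31A2, and on each of them the 4 high-fat arrays lay below the 4 control arrays. With limma 0 of 99 members were called (0.0% of all probe sets), and 7 had an unadjusted p under 0.05, all lower (7.07%), against 9.06% of all probe sets (5.17% lower). Of the 99 differences, 28 were above 0, against 48.8% of all probe sets, and the median was -0.07 against -0.0045. With array weights 39 of the 99 were above 0. The groups did not overlap for 9 members, each lower on the high-fat chow (9.09%), against 5.05% of all probe sets (2.97% lower). The members tested share their 8 arrays and are not independent of one another.

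SLC11A1 (probe set Ssc_300_1_S1_at) had the largest difference. It read 9.34 and 9.18 in control females and 9.79 and 9.61 in control males, against 8.35 and 8.26 in high-fat females and 8.82 and 8.65 in high-fat males, so that both sexes were lower by about as much. The difference was -0.96 (SE 0.25, limma adjusted p = 0.284), a 1.95-fold lower level. It passed where only the 8 arrays compared were fitted (limma adjusted p = 0.0464) or where 8 means of condition and sex were fitted (limma adjusted p = 0.0477). In those fits 2 and 18 of all 17240 probe sets passed. The difference of SLC11A1 was -1.18 within set C and -0.96 within set D, where each set holds a single array of 1 of the diets.

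SLC31A2 read 7.31, 7.39, 7.86 and 7.64 on control chow and 6.72, 6.63, 7.00 and 6.76 on high-fat chow (-0.77, SE 0.24, limma adjusted p = 0.326). SLC16A3, which exports lactate from glycolytic cells, read 6.00, 5.76, 6.40 and 5.89 and then 5.30, 5.59, 5.52 and 5.43 (-0.56, SE 0.16, limma adjusted p = 0.326). SLC26A11 read 6.75, 6.64, 6.88 and 6.92 and then 5.87, 6.40, 6.23 and 6.56 (-0.54, SE 0.14, limma adjusted p = 0.284), and its second probe set gave -0.29. For SLC31A2 and SLC26A11, members that had risen with time on control chow, the high-fat arrays thus lay nearer to the level of time 0, a reading in which the control arrays of 9 months enter both comparisons.

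SLC8B1 had a difference of -0.35 (SE 0.09, limma adjusted p = 0.284) and SLC26A6, an exchanger of chloride, bicarbonate and oxalate, one of -0.33 (SE 0.09, limma adjusted p = 0.293). SLC25A5 (-0.18), SLC2A4RG (-0.16) and SLC23A2 (-0.19), an ascorbate carrier, also did not overlap between the diets, with limma adjusted p of 0.589, 0.622 and 0.734. SLC35B3, a carrier of activated sulphate, had -0.50 with overlap, and 0.26 within set C.

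By class, the median was -0.32 for the 2 SLC16 carriers, -0.19 for the nucleoside carrier SLC29A1 (0.10 within set C), -0.15 for the vitamin carriers (0 of 5 positive) and -0.11 for inorganic ions (3 of 9 lower at an unadjusted p under 0.05). It was -0.09 for the SLC35 family (1 of 10 positive), -0.08 for the mitochondrial carriers (3 of 18 positive), -0.07 for metals and haem (2 of 13 positive, 7 with array weights) and -0.06 for sugars and polyols. Amino acids and peptides (-0.01), fatty acids (-0.02), organic anions, cations and choline (0.02), the unassigned members (0.03) and the regulators (-0.04) had medians nearer to 0. Of the members with large differences between the times, SLC38A1 was at 0.10 (SE 0.23), SLC25A36 at -0.03 (SE 0.16) and SLC2A3 at -0.07 (SE 0.17) on the high-fat chow. Neither the 2 fatty acid carriers SLC27A1 (-0.08; 0.09 within set D) and SLC27A6 (0.04) nor the plasma membrane carnitine carrier SLC22A5 (0.16) came near the threshold.

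Monocyte markers were lower as well. All 12 were lower on the high-fat chow (median -0.43), 0 were called with limma and 5 had an unadjusted p under 0.05, among them CD14 (-0.76), CD163 (-0.90) and SPI1 (-0.68). Their summed intensities ran from 16074 to 23447 on control chow and from 14006 to 18693 on high-fat chow. T cell markers were positive in 8 of 10 (median 0.17), with sums of 15335 to 17019 and 15477 to 18795. Erythroid markers were positive in 4 of 4 (median 0.44, 1 at an unadjusted p under 0.05), NK and cytotoxic markers in 6 of 6 (median 0.19) and platelet markers in 5 of 6 (median 0.24), and granulocyte markers were negative in 5 of 7 (median -0.26), with 0 of these called. Between the times on control chow the median of the monocyte markers was 0.22, with SLC11A1 and SLC31A2 positive and SLC16A3 at -0.34. The part of monocytes in the lower SLC11A1, SLC31A2 and SLC16A3 of the high-fat chow was not tested. Of the partner genes 0 were called, and the asparagine synthetase ASNS had the difference with the smallest p of the amino acid response, 0.65 (limma adjusted p = 0.398).

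**Figure D3:**
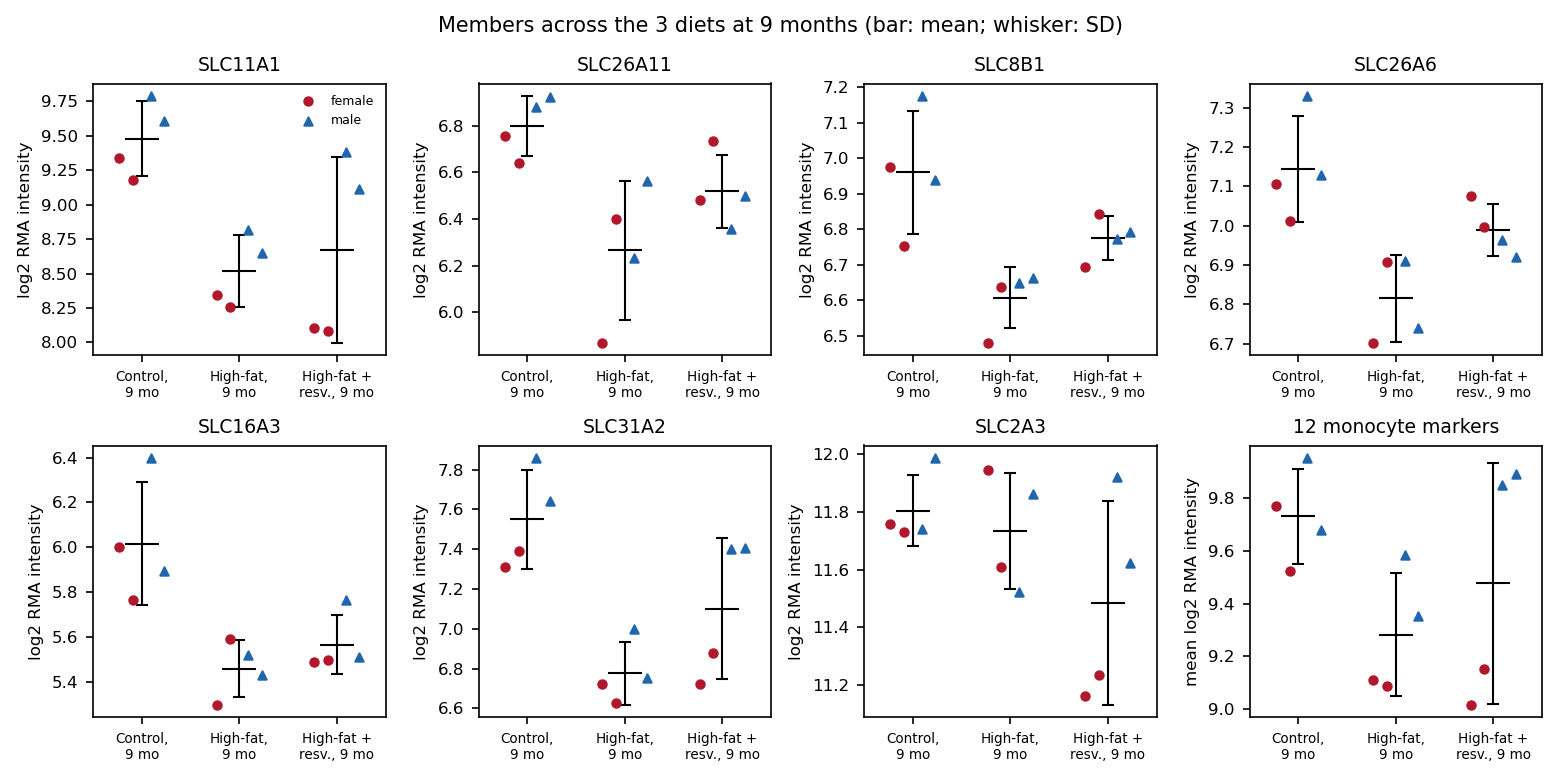
Log2 RMA intensity of 7 members, and the mean over 12 monocyte markers, on each array of 9 months by diet (circles, females; triangles, males; bar and whisker, mean and SD of 4 arrays). SLC11A1 reads 9.18 to 9.79 on control chow, 8.26 to 8.82 on high-fat chow and 8.08 to 9.38 with resveratrol, while SLC2A3 overlaps across the diets.

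When resveratrol was added to the high-fat chow, again no carrier passed. The smallest p belonged to SLC25A24, the ATP-magnesium/phosphate carrier of mitochondria, SLC46A3 and SLC4A4, a sodium bicarbonate carrier. With limma 0 of 99 members were called (0.0% of all probe sets). At an unadjusted p under 0.05 were 3 (3.03%), of which 1 was higher (against 3.21% of all probe sets) and 2 were lower (against 3.42%; both directions 6.63%). The median was 0.04, against 0.02 over all probe sets, and 63 of 99 differences were above 0, against 54.2%.

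SLC25A24 read 10.28, 10.52, 10.47 and 10.70 on high-fat chow and 9.66, 10.10, 9.93 and 10.59 with resveratrol. Its difference was -0.42 (SE 0.16, limma adjusted p = 0.728), and 1 resveratrol male lay among the high-fat arrays. SLC46A3 read 7.37, 7.14, 6.90 and 7.33 and then 7.48, 7.61, 7.65 and 7.32, a difference of 0.33 (SE 0.12, limma adjusted p = 0.728). SLC4A4 had -0.43, where high-fat male 23 at 6.71 was above all other arrays of the study, and 0.24 within set D. SLC35B3 had 0.50, but -0.15 within set C, and SLC6A4 0.70, both with overlap.

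Of the marker genes 0 were called between these diets. Monocyte markers were positive in 11 of 12 (median 0.16), platelet markers in 5 of 6 (median 0.63) and granulocyte markers in 5 of 7 (median 0.14), and T cell markers were negative in 8 of 10 (median -0.10). Platelet sums ran from 2276 to 4704 on high-fat chow and from 2614 to 7345 with resveratrol, and monocyte sums from 14006 to 18693 and from 13883 to 22175. Their part in the differences was not tested.

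The groups did not overlap for 3 members (3.03%, against 3.81% of all probe sets, 1.84% higher), each higher with resveratrol: SLC26A6 (0.17), SLC8B1 (0.17) and SLC37A4 (0.13), the glucose 6-phosphate carrier of the endoplasmic reticulum. SLC26A6 read 6.70, 6.91, 6.91 and 6.74 on high-fat chow and 7.08, 7.00, 6.96 and 6.92 with resveratrol. SLC8B1 read 6.48, 6.64, 6.65 and 6.66 and then 6.69, 6.84, 6.77 and 6.79. Both were among the members that were lower on the high-fat chow, and the high-fat arrays are shared by the 2 comparisons, so that the opposite signs are not separate results.

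For high-fat chow with resveratrol against control chow, 0 of 99 members were called with limma (0.0% of all probe sets). At an unadjusted p under 0.05 were 7 (7.07%), against 3.85% of all probe sets: SLC46A3 was higher (against 1.95%) and 6 were lower (against 1.9%). The smallest limma adjusted p of a member was 1.00. SLC11A1 was at -0.81 (SE 0.25), SLC35F6 at -0.56 (SE 0.22), SLC16A3 at -0.45 (SE 0.16), SLC25A24 at -0.42 (SE 0.16), the folate carrier SLC46A1 at -0.22 and the anion exchanger SLC4A2 at -0.21. Monocyte markers were lower in 9 of 12 (median -0.32, 3 at an unadjusted p under 0.05), with sums of 16074 to 23447 on control chow and 13883 to 22175 with resveratrol. NK and cytotoxic markers were higher in 6 of 6 (median 0.37; sums of 10232 to 13748 and 12334 to 16270). Of both lists 0 were called, and their part in these carriers was not tested.

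SLC46A3 was at 0.35 and was the one member whose resveratrol arrays all lay above the control arrays, which read 7.17, 7.21, 7.12 and 7.14, while SLC25A5 (-0.11) was the one with all below (2.02%, against 1.53% of all probe sets, 0.905% above and 0.626% below). SLC11A1 was split by sex in this group: the resveratrol females read 8.11 and 8.08, below both the control and the high-fat females, and the resveratrol males 9.38 and 9.11, between the high-fat males and the control males. The dependence of the resveratrol effect on sex did not pass with limma for this gene.

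SLC6A4 had a difference of 0.62 from control and the widest scatter of all members. Without control female 8 the difference was 0.29, and within set D it was -0.10. Of 6 platelet markers 4 were positive and 2 negative in this comparison (median 0.87, lowest -0.50). With limma 3 of them were higher at an unadjusted p under 0.05 and 0 were called. SLC6A4 read 5.28 in control female 8 and 6.72 to 7.08 in the other controls of 9 months, and 7.03, 6.26, 7.91 and 7.17 with resveratrol. Platelet sums ran from 1498 to 4802 on control chow and from 2614 to 7345 with resveratrol, where control female 8 was the lowest. The part of platelets in SLC6A4 was not tested.

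Females were compared with males at both times. In the 10 control pigs of time 0, SLC25A36 was the one carrier that differed between the sexes. It read 7.55, 7.58, 7.28, 7.69 and 7.63 in females and 8.29, 8.15, 8.06, 8.06 and 8.00 in males, without overlap, a difference of -0.57 (SE 0.09, limma adjusted p = 0.00460). That was 1 of 99 members (1.01%), against 1.07% of all probe sets (0.493% higher, 0.574% lower). At an unadjusted p under 0.05 there were 14 (14.1%, against 16.4%), 7 higher (against 9.08%) and 7 lower (against 7.35%). Within set B alone, without females 6 and 10, the gene did not pass (limma adjusted p = 0.131) and 0 members were called. The count was 2 without female 6, 8, 17 or 20, male 15 or 24 of time 0, or control female 8 or 18 of 9 months, and 3 without control male 16 or 25 of 9 months, which enter through the shared estimate of the spread.

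SLC25A38, which brings glycine into mitochondria for haem synthesis, was at 0.45 (limma adjusted p = 0.0501; 0.04 on its second probe set) and SLC16A3 at 0.45 (limma adjusted p = 0.0575), each higher in all 5 females than in all 5 males. The groups were thus apart for 3 members (3.03%, against 3.25% of all probe sets, 1.74% higher and 1.51% lower). SLC16A3 read 6.34, 6.62, 6.62, 6.80 and 6.55 in females and 5.89, 6.08, 6.14, 6.22 and 6.33 in males. SLC3A2 had -0.53, SLC30A5 -0.47 (0.18 on its second probe set), SLC38A9 0.41 (0.02 on its second probe set), SLC33A1 0.37, SLC7A1 -0.31, SLC31A1 -0.30 and SLC45A2 0.28, none past the threshold. Of the marker genes 1 T cell gene, IL7R (-0.42), and 1 monocyte gene, AIF1 (0.53), passed.

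At 9 months, averaged over the 3 diets, 9 of 99 carriers differed between the sexes (9.09%), against 6.01% of all probe sets (3.07% higher, 2.94% lower). Females were higher for SLC2A1 (0.60), SLC25A1 (0.40), SLC25A4 (0.32), SLC44A2 (0.30), SLC35C2 (0.26) and SLC38A10 (0.24), and lower for SLC7A7 (-0.68), SLC11A1 (-0.67) and SLC8A1 (-0.60). At an unadjusted p under 0.05 there were 17 higher (against 12.2%) and 5 lower (against 9.62%), in all 22.2% against 21.8%. SLC25A36, the gene called at time 0, was not called here.

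SLC2A1 read 8.72, 8.70, 8.99, 8.78, 8.85 and 8.72 in the 6 females and 8.60, 8.20, 8.08, 8.37, 7.87 and 8.01 in the 6 males (SE 0.12, limma adjusted p = 0.00909). The adenine nucleotide carrier SLC25A4 read 9.33, 9.30, 9.53, 9.40, 9.58 and 9.54 and then 9.01, 9.17, 9.09, 9.20, 9.11 and 9.17 (SE 0.09, limma adjusted p = 0.0349). For both genes each female was above each male. These were the 2 members without overlap between the sexes (2.02%, against 1.27% of all probe sets, 0.812% higher). SLC25A1, the mitochondrial citrate carrier, overlapped: control male 16 read 8.75, above both control females at 8.32, while the resveratrol females read 8.74 and 8.71 against 7.88 and 7.80 in males (limma adjusted p = 0.0456).

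For SLC7A7 the female minus male difference was -0.09 on control chow, -0.74 on high-fat chow and -1.22 with resveratrol. Control females read 7.78 and 8.11 against 7.95 and 8.11 in males, high-fat females 7.21 and 7.27 against 8.13 and 7.83, and resveratrol females 6.98 and 7.06 against 8.06 and 8.43 (mean of the 3 differences -0.68, SE 0.13, limma adjusted p = 0.00720). The female minus male difference of the high-fat effect was -0.65 (SE 0.32, limma adjusted p = 0.433), so that the dependence on diet did not pass. The dimmer second probe set of the gene gave 0.06 for the sexes and 0.35 for that dependence.

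For SLC11A1 (SE 0.15, limma adjusted p = 0.0127) the difference was -0.44 on control chow and -0.43 on high-fat chow, and -1.15 with resveratrol. SLC8A1 (SE 0.15, limma adjusted p = 0.0258) read 4.76 and 5.37 in resveratrol females against 6.31 and 6.06 in males, with the lowest array below the filter. Its female minus male differences were -0.23, -0.45 and -1.12 in the order of the 3 diets. Both adjusted p-values belong to the mean over the 3 diets. Neither the high-fat nor the resveratrol effect differed between the sexes past the threshold for SLC7A7, SLC11A1 or SLC8A1. SLC44A2, whose protein also carries a neutrophil antigen, was called on a second probe set as well (0.44). SLC46A2 (-0.60), SLC15A2 (0.57), a peptide carrier, and SLC25A46 (-0.46), which shapes mitochondria, did not pass.

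Monocyte markers were lower in females in the same comparison. Of 12, 5 were lower and 0 higher (median -0.53), with VCAN at -1.31, TYROBP at -0.70 and AIF1 at -0.61, and sums of 13883 to 20982 in females and 16330 to 23447 in males. Granulocyte markers were lower in 2 of 7 (S100A9, -1.25, and S100A12, -0.71) and erythroid markers in 3 of 4, with sums of 1119 to 2664 and 1979 to 7308. Platelet markers were negative in 6 of 6 (median -0.66), and THBS1 was called (-1.19). T cell markers were positive in 9 of 10 and CD3E was called (0.54), as were the B cell gene CD79B (0.97) and, lower in females, the NK gene FCGR3A (-0.26). The part of these cells in the lower SLC7A7, SLC11A1 and SLC8A1 of females was not tested. Of the partner genes, the sodium pump subunit ATP1B1 (-0.64) and TXNIP (-0.61), an inhibitor of glucose carriers, were lower in females, RRAGA was higher (0.42) and LAMTOR2 lower (-0.29). Of all probe sets 3.07% were called higher and 2.94% lower in this comparison.

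The count of 9 rested on single arrays. It was 3 without high-fat male 23, resveratrol female 21 or resveratrol male 4, 4 without control male 25, high-fat female 27 or high-fat female 30, and 5 without control female 8 or resveratrol female 22. Within sets C and D taken alone it was 0, in fits of 7 and 5 arrays, and each of the 9 calls was lost there. With an additive sex term over that time it was 3, and 1.18% of all probe sets passed.

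**Figure D4:**
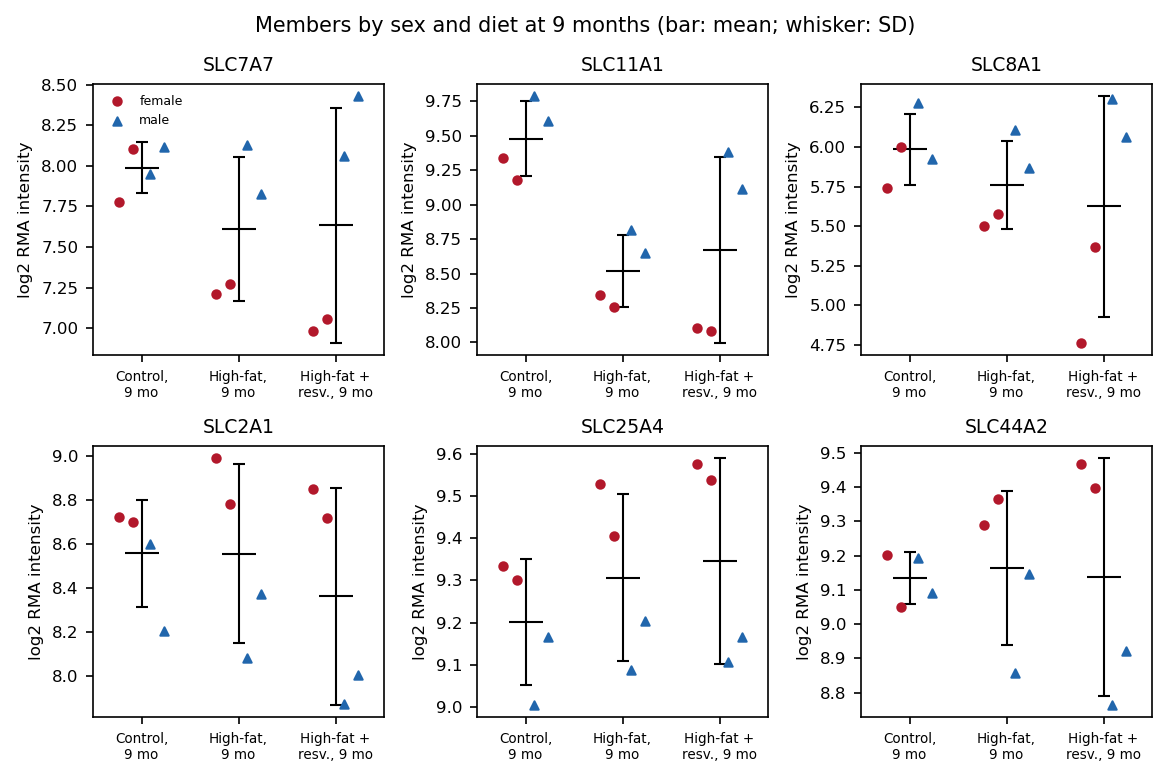
Log2 RMA intensity of 6 members called between the sexes at 9 months, on each array by diet (circles, females; triangles, males; bar and whisker, mean and SD of the 4 arrays of a diet). Females of SLC7A7 and SLC11A1 lie farthest below males with resveratrol, a dependence on diet that did not pass. For SLC2A1 and SLC25A4 each of the 6 females is above each of the 6 males.

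Whether a diet effect differed between the sexes was tested for all members. With limma 0 of 99 were called for the high-fat effect (0.0058% of all probe sets, 1 of 17240), and 9 had an unadjusted p under 0.05 (9.09%, against 11.7%). The smallest p were those of SLC45A2 (0.57, limma adjusted p = 0.397), SLC30A5 (-0.87) and the oxoglutarate carrier SLC25A11 (0.58). For the resveratrol effect 0 of 99 were called (0.0116% of all probe sets) and 6 had an unadjusted p under 0.05 (6.06%, against 5.85%). There the smallest p was that of the potassium-chloride carrier SLC12A4, which read 6.57 and 6.49 in resveratrol females against 5.77 and 5.62 in males, with all other arrays of 9 months between 5.81 and 6.13 (0.75, SE 0.24, limma adjusted p = 0.837).

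Over all 8 comparisons, 33 of the 99 members were called at least once and 66 in none. SLC25A36, SLC2A1, SLC44A2 and SLC7A7 were the 4 called in more than 1.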

How the data were processed

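Expression was measured on 22 Affymetrix porcine arrays, 1 per blood sample. Per the labels' protocols, mononuclear cells came from a density gradient and 4 µg of total RNA was labelled with biotin. The values the authors deposited are linear RMA intensities, made with GCOS, RMA and Affymetrix Expression Console 1.1, per the submitters' processing notes; parameters were not given in the sources used here. Each deposited intensity, raised to at least 1, was put on a log2 scale here. Symbols came from the platform's annotation, and 97 of 99 members had their Entrez ID in the pig gene table, with 0 changed symbols. No sequences or coordinates are given. The spike-in sets were made here by cutting the arrays of each time at the widest gap in the mean of 36 poly-A control probe sets, and are no label of the study.

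Differences were tested with limma 3.58.1 (R 4.3.3; statmod 1.5.0 for blocks), two-sided, with Benjamini-Hochberg adjustment over all 17240 probe sets at a threshold of 0.05. Times and diets were compared in a fit of 22 arrays with condition and sex, and the sexes in a fit of 8 means. The p-values measure the spread between pigs, and the number of arrays limits the precision. The fit was tested on simulated data. RMA compresses differences of dim probe sets, and levels of different probe sets were not compared.

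The members and lists were chosen with earlier results of these data known. Substrate classes follow the SLC family. The class of the 3 regulators was added after the data were seen. Named were, per comparison and direction, called members (at most the 10 largest, filled to 5 by p), the 2 with the smallest diet p per class, the 5 of widest scatter, and partner genes that were called or had the smallest p. Other members that complete a count or a class were named after their values were seen. Pigs 8 and 25 have arrays at both times, per the labels. Their deviations from the means of group and sex correlated at -0.056 and 0.199. With another time 0 pig of that sex the highest correlation was 0.348 and 0.198. The profiles thus do not settle whether the numbers pair.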

Additional observations from a re-analysis of the deposited data

Results flagged for a closer look

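Of 268 groups of 4 to 10 arrays examined, 9 held 1 array that stood apart from the others, where chance gives about 13. On control chow at 9 months, female 8 was lowest for SLC16A13 (6.28, the next array 6.57) and for the nucleoside carrier SLC29A1 (6.32, next 6.93). In that group male 25 was highest for SLC2A3 (11.99, next 11.76) and SLC46A2 (10.00, next 9.60), and male 16 was highest for SLC25A11 (7.67, next 7.30) and lowest for SLC33A1 (4.08, next 4.64). On high-fat chow, female 30 was lowest for the glutamate carrier SLC1A1 (5.35, next 5.52) and female 27 for SLC8B1 (6.48, next 6.64). With resveratrol, male 4 was highest for SLC16A3 (5.76, next 5.51).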

How the results depend on the processing

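The alternatives changed the filter, the floor, the normalization, the array weights, the prior of the variance, the probe set, the blocks and the arrays included. The count of called members moved by more than 1.5 times in these cases. For high-fat chow it was 1 (SLC11A1) with 8 means of condition and sex and 1 with only the arrays compared. In those fits 18 and 2 of all 17240 probe sets passed. With array weights 68 probe sets passed for high-fat chow (0.394%) and 0 members. For the sexes at time 0 it was 3 with a stricter filter (1.63% of all probe sets). It was 2 with a floor of 16 (1.19%), after quantile normalization (1.01%) and with array weights (0.957%), and 0 within set B. For the sexes at 9 months it was 0 within set C and 0 within set D. With an additive sex term it was 3 there (1.18% of all probe sets). The cause was not tested. With 1 array left out, the counts ran from 21 to 30 for time, from 1 to 3 for the sexes at time 0 and from 3 to 11 for the sexes at 9 months, and stayed at 0 for the diets and the interactions. SLC7A7 reversed between the sexes at 9 months on its second probe set (0.062). With pig as a replicate block, the counts were 28 for time, 0 for high-fat chow, 1 for the sexes at time 0 and 9 at 9 months. The numbers pair only 2 pigs. Of 3455 alternatives of 103 named results, 3288 kept their direction and side of the threshold, 121 lost a call with the same direction and 31 gained one. Most named results were not called and had no call to lose. The sign changed in 15, over 13 results, and in 14 of them neither value passed. Of the 27 calls for time, 19 were followed here, every fall and the 10 largest rises. Of these 19, 10 were lost in no alternative and 9 in at least 1. The smaller rises were not followed. The 1 call between the sexes at time 0 and all 9 calls at 9 months were lost in at least 1. Arrays per group, 2 of each sex at 9 months, limit what the diets can show. The spike-in set cannot be told apart from time and went largely together with diet.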
